A study of Mus musculus with 8 samples.

Results

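Metallothioneins and zinc transporters were followed in wild-type mouse hepatocytes and in hepatocytes with a conditional Taf2 knockout. The set held 10 of the 24411 genes in the deposited table, taken by symbol: the metallothionein genes Mt1 and Mt2, the metal-sensing transcription factor gene Mtf1, the zinc exporter genes Slc30a1, Slc30a5 and Slc30a10, and the zinc importer genes Slc39a4, Slc39a8, Slc39a10 and Slc39a14. The cells were liver hepatocytes, 4 libraries from wild-type animals and 4 from animals in which Taf2 was conditionally knocked out in hepatocytes, and all 8 were harvested 2 days after plating. Taf2 encodes a subunit of TFIID, a general transcription factor that recognises core promoters and helps to place RNA polymerase II at the start site. The sources used here name neither the Cre driver nor the deleted exons, the strain or the age of the mice. Nothing in the labels says whether libraries of a genotype came from separate mice, so p-values measure the spread between these libraries, which may be technical.

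Metallothioneins are small cysteine-rich proteins that bind zinc, copper and cadmium, and the liver is a main site of their induction by metals, glucocorticoids and cytokines. Free zinc activates MTF1, the product of Mtf1, which binds metal response elements and drives Mt1, Mt2 and Slc30a1. Transporters of the SLC30 family move zinc out of the cytosol, across the plasma membrane or into organelles, and those of the SLC39 family move it into the cytosol.

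Levels below are CPM, each gene's counts relative to its library's total, after TMM scaling for differences in composition between libraries. Estimated counts summed to between 18947059 and 23933589 per library. Taf2 itself stood at 42.5, 46.4, 45.1 and 42.2 CPM in wild-type replicates 1 to 4 and at 13.9, 15.7, 13.4 and 12.7 CPM in the knockout libraries. Its level was 3.16-fold lower in the knockout, so part of the Taf2 counts remained. Every library matched its label. Alb, the albumin gene that defines hepatocytes, averaged 38035 CPM in the wild-type libraries and 55183 CPM in the knockout ones. Of the 10 hepatocyte markers listed, 5 were called higher and 2 lower (70% called). Over all 12122 genes tested 61.4% were called, 30.2% higher and 31.2% lower. Cps1, a urea cycle gene, went from 694 ± 27.2 to 441 ± 35.1 CPM and the apolipoprotein gene Apoa1 from 4588 ± 58.8 to 3756 ± 62.8 CPM (SD, n = 4 each). Hnf4a, Asgr1 and Serpina1c were not called. Markers of other liver cells were present too. All 11 tested macrophage markers (12 listed; edgeR adjusted p of 1.94e-14 for C1qa) and all 9 tested endothelial markers (10 listed; 5.17e-15 for Pecam1) were called higher. Of 11 stellate cell and fibroblast markers 8 were called higher and 2, Tagln and Acta2, lower. The summed macrophage markers ran from 87.3 to 116 CPM in the wild type and from 235 to 265 CPM in the knockout. Most of that sum is Cd68, at means of 84.1 and 172 CPM. The endothelial markers ran from 46.8 to 52.6 and from 125 to 131 CPM. The stellate markers, most of whose wild-type sum is Tagln, went from between 203 and 222 down to between 170 and 184 CPM. Cholangiocyte markers, of which 2 of 4 tested were called higher and 2 lower (the call of Spp1 was lost in 8 of 16 alternatives), summed to 116 to 129 and 153 to 181 CPM. Sox9 rose the most of these, from a mean of 31.0 to 73.5 CPM, while Krt19 and Krt7 were the 2 called lower. Secretory epithelium markers, with 1 of 3 lower, summed to 90.1 to 108 and 48.9 to 52.6 CPM, with Prss1 and Reg1 at 0 in every library. Most of that sum is Vil1, the 1 called lower, at means of 92.9 and 44.4 CPM. No macrophage, endothelial or stellate marker was at 0 throughout. The part of these cells in the changes below was not tested, and in bulk RNA more cells of a type cannot be told apart from more RNA per cell.

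The stretches before the starts of Mt1, Mt2, Slc30a1 and Slc30a10, the 4 members with the largest rises, are shown because the core of the metal response element can be read in them. RefSeq promoter sequences matched 8 of the 10 members, on build GRCm38.p6, which is mm10. The core was searched on both strands as TGCACNC and TGCGCNC, in the 250 bases before each start, and its matches are in capitals. On the opposite strand the core reads as the reverse complement, as in GTGTGCA before Mt2 or GAGTGCA before Slc30a1.
Mt1, chr8:94178839-94179088, plus strand: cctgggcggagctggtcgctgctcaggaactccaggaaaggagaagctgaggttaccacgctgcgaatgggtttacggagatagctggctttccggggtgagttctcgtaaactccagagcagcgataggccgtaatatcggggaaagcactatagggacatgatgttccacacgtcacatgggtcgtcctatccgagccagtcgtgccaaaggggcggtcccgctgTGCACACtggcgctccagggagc
Mt2, chr8:94172368-94172617, plus strand: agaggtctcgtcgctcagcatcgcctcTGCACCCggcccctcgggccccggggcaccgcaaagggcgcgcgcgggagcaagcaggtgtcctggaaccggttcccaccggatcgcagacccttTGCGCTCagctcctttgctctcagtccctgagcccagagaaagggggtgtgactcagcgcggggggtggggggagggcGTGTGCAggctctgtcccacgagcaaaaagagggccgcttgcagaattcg
Slc30a1, chr1:191906531-191906780, plus strand: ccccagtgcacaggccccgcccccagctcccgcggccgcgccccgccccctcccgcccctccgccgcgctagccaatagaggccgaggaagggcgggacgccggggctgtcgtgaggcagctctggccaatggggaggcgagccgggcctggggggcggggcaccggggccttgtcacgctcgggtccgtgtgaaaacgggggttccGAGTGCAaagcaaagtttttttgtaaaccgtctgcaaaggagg
Slc30a10, chr1:185454598-185454847, plus strand: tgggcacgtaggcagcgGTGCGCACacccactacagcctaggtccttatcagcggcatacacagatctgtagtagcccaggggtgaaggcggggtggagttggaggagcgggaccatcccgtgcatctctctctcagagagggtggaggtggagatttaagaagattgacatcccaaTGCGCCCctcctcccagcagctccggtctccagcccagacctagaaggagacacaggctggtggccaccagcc
The Mt2 window held 3 matches, the Slc30a10 window 3, of which 2 overlap on opposite strands, and the Mt1 and Slc30a1 windows 1 each. Of 32817 promoter windows of this length in the RefSeq table, 21.4% held at least 1 match and 1.26% held 3 or more. Single matches were also found before Slc30a5 and before the second of the 2 listed Slc39a8 starts, and none before Mtf1 or either Slc39a10 start. The TATA box letters TATAAA were found in none of the members' windows before these RefSeq starts, against 12.4% of all windows. For Mt1 and Mt2 this depends on the start used, as given below. These are matches of letters and no measure of binding.

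**Figure D1:**
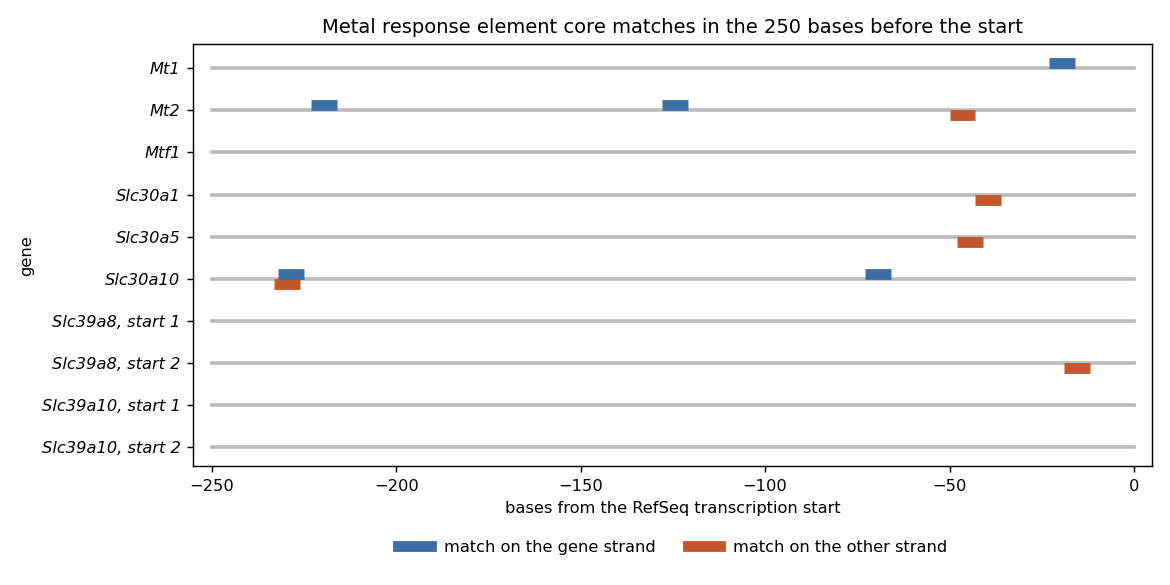
Positions of the metal response element core in the 250 bases before each RefSeq start (x axis, bases from the start; y axis, the 8 genes with a sequence, 2 of them with 2 starts). Blue bars are matches on the gene's own strand and orange bars matches on the other strand. Mt2 and Slc30a10 hold 3 matches each.

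The GENCODE annotation lists later starts for both metallothionein genes, and the stretch between starts was searched in the same way. For Mt1 the first start is at 94179082 and later ones at 94179211 and 94179241. The 129 bases up to the nearer of these held 4 core matches, where 13.1% of the 129 bases next to a RefSeq start held any. The 159 bases up to the farther held the same number of core matches and 1 TATAAA, found in 7.96% of windows of that length. For Mt2 the 196 bases between the starts at 94172664 and 94172860 held 3 core matches and 1 TATAAA, against 17.9% and 9.79% of windows of that length with any. The bases from the RefSeq start of Mt2 at 94172618 up to 94172664 were in neither search. The files do not show which start was used in these cells.

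Both metallothionein genes were higher in the knockout, each by about the same ratio. Mt1 stood at 1270.25, 1219.7, 1160.3 and 1275 CPM in wild-type replicates 1 to 4 and at 1936, 1789.5, 2269 and 1839 CPM in the knockout. Every knockout library was above every wild-type library, and knockout replicate 3 was the highest. The mean rose from 1231 ± 53.6 to 1958 ± 216 CPM (SD, n = 4 each), a log2 fold change of 0.67 (SE 0.056; edgeR adjusted p = 2.53e-09). Mt2 stood at 1104, 1104, 1027 and 1144.5 CPM in the wild type and at 1671, 1588, 1863 and 1669 CPM in the knockout. Its groups did not overlap either, and the same knockout library was highest. Mt2 rose from 1095 ± 49.2 to 1698 ± 117 CPM (SD, n = 4 each), a log2 fold change of 0.63 (SE 0.045; edgeR adjusted p = 2.13e-10).

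These genes lie side by side on chromosome 8 (mm10), Mt2 from 94172664 to 94173568 and Mt1 from 94179082 to 94180327, both on the plus strand and 5.51 kb apart. The summed counts of both took 0.235% ± 0.0101 of all counts in the wild type and 0.362% ± 0.0331 in the knockout (SD, n = 4 each). Ranked by CPM, which is not corrected for transcript length, Mt1 was between 68th and 74th of all genes in the wild-type libraries. In the knockout libraries it was between 43rd and 52nd. All values of the 10 members were whole numbers, where RSEM leaves fractions in genes that share reads with others.

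**Figure D2:**
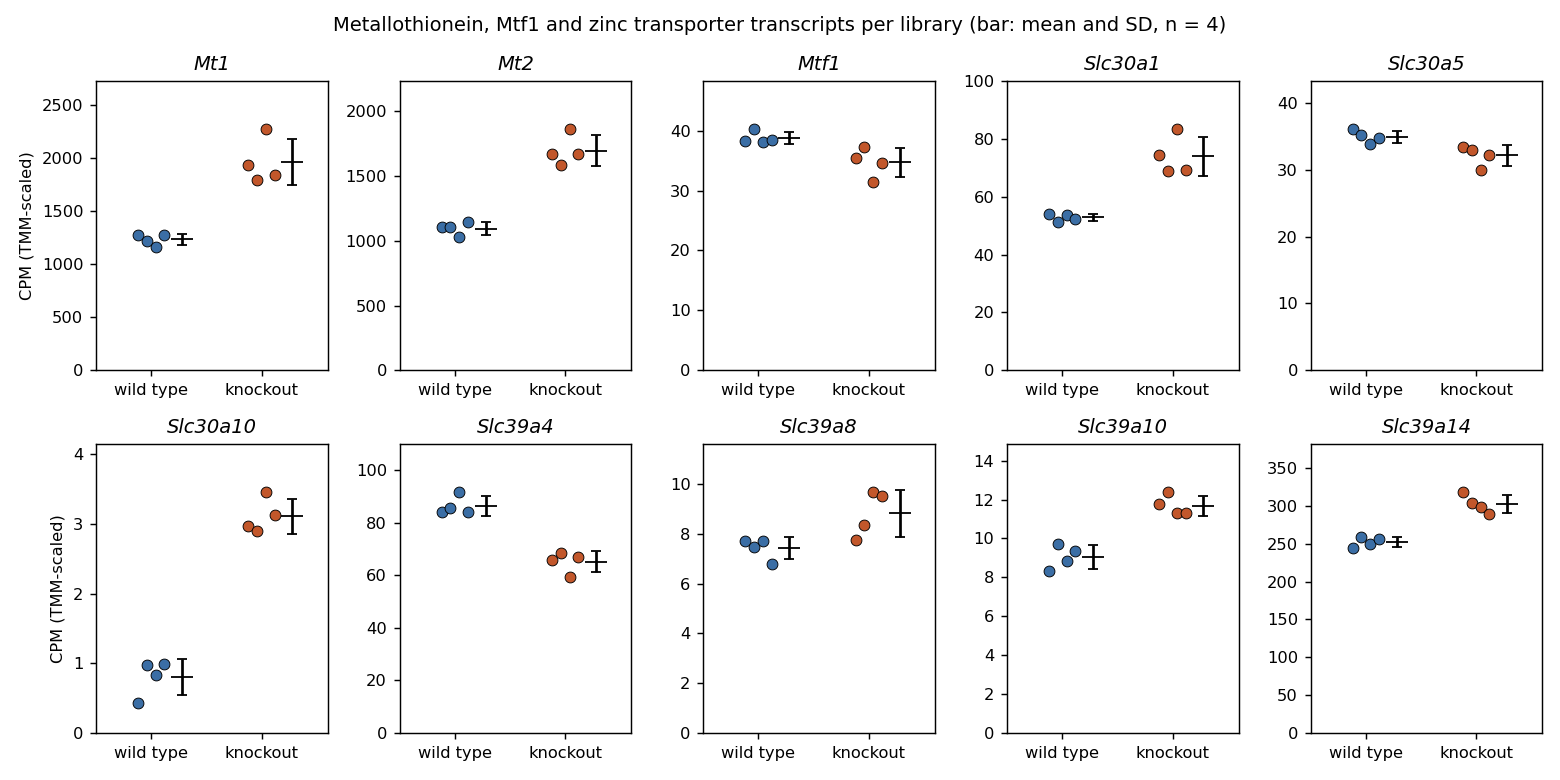
CPM of each of the 10 genes in every library (y axis, from 0; x axis, genotype), with points for libraries and the bar for the mean and SD of 4. Mt1 spans 1160.3 to 1275 CPM in wild-type and 1789.5 to 2269 CPM in knockout libraries, and Slc39a8 has the smallest gap between the groups.

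The ratio of the metallothioneins to each other was tested within libraries, where scaling plays no part. Mt1 counts were 1.15, 1.10, 1.13 and 1.11 times the Mt2 counts in the wild type and 1.16, 1.13, 1.22 and 1.10 times in the knockout. The log2 ratio was 0.17 ± 0.026 in the wild type and 0.20 ± 0.062 in the knockout (SD, n = 4 each). The difference of 0.032 was within the spread (exact two-sided permutation test, p = 0.429, and 0.429 adjusted over the 2 ratios tested). The smallest p that 4 against 4 libraries allow is 0.0286.

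Of the genes tested with a mean of at least 5 CPM, those nearest in pattern to Mt1 were sought as the smallest root mean square difference in log2 CPM over the 8 libraries, each gene centred on its own mean. Among 9202 candidates these were Rnf217 (0.042), Mt2 (0.044) and Rsbn1 (0.046). For Mt2 they were Cish (0.034), Acaa2 (0.037) and Rnf217 (0.038). Rnf217 ran from 35.6 to 37.9 CPM in the wild type and from 54.3 to 64.2 CPM in the knockout, and Cish from 11.2 to 12.2 and from 16.9 to 19.2 CPM. Centring over all 8 libraries keeps the difference between genotypes, so a small distance requires a fold change near that of the metallothionein gene. The likeness of these rises therefore follows from how the genes were sought. Shared regulation was not tested.

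Mtf1, the gene of the metal sensor, moved the other way and by little. It stood at 38.3, 40.2, 38.1 and 38.5 CPM in the wild type and at 35.5, 37.3, 31.4 and 34.6 CPM in the knockout. The groups did not overlap, but the gap between 37.3 and 38.1 CPM was small. Mtf1 fell by 0.16 on the log2 scale (SE 0.051; edgeR adjusted p = 0.0105), and the call was lost without knockout replicate 3 (log2 fold change -0.11; edgeR adjusted p = 0.0588). Mtf1 lies on chromosome 4 from 124802104 to 124849800.

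Among the exporters, Slc30a1 and Slc30a10 were higher and Slc30a5 slightly lower. Slc30a1 encodes the zinc exporter of the plasma membrane and lies on chromosome 1 from 191906767 to 191913247. It stood at 54.1, 51.5, 53.7 and 52.3 CPM in the wild type and at 74.4, 68.9, 83.4 and 69.3 CPM in the knockout. All knockout libraries were above all wild-type libraries, with knockout replicate 3 again the highest. Slc30a1 rose from 52.9 ± 1.19 to 74.01 ± 6.76 CPM (SD, n = 4 each), a log2 fold change of 0.49 (SE 0.050; edgeR adjusted p = 6.1e-08).

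Slc30a10, best known as a manganese exporter, had the largest change of the set from the lowest level. Its counts were 10, 20, 16 and 21 in the wild type and 70, 58, 80 and 66 in the knockout, or 0.434, 0.972, 0.835 and 0.984 CPM against 2.96, 2.90, 3.46 and 3.13 CPM. The groups were far apart, though the wild-type values rest on few reads. The rise was 3.89-fold (log2 fold change 1.96, SE 0.20; edgeR adjusted p = 3.7e-08), and its size exceeded that of 96.7% of the genes tested. Slc30a10 lies on chromosome 1 from 185454848 to 185468762.

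Slc30a5, whose product carries zinc into the early secretory pathway, stood at 36.1, 35.2, 33.9 and 34.8 CPM in the wild type and at 33.5, 33.03, 29.9997 and 32.2 CPM in the knockout. The highest knockout value lay just under the lowest wild-type value. Slc30a5 fell by 0.12 on the log2 scale (SE 0.048; edgeR adjusted p = 0.0335). This call was lost in 9 of 16 alternatives, among them upper-quartile scaling (edgeR adjusted p = 0.0829), DESeq2 (adjusted p = 0.0815) and leaving out knockout replicate 3 (log2 fold change -0.085; edgeR adjusted p = 0.148). Over all 16, its adjusted p ran from 0.026 to 0.148.

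Among the importers, Slc39a14, Slc39a10 and Slc39a8 were higher and Slc39a4 lower. Slc39a14 was the most abundant transporter of the set and encodes an importer that liver cells use for zinc, manganese and iron not bound to transferrin. It stood at 244, 259, 249.97 and 256 CPM in the wild type and at 318, 304, 299 and 289.9 CPM in the knockout, with no overlap. Slc39a14 rose from 252 ± 6.56 to 303 ± 11.96 CPM (SD, n = 4 each), a log2 fold change of 0.26 (SE 0.037; edgeR adjusted p = 3.45e-06). Slc39a10 encodes an importer of the plasma membrane whose transcription MTF1 is known to restrain when zinc is plentiful. It stood at 8.33, 9.72, 8.82 and 9.37 CPM in the wild type and at 11.8, 12.4, 11.3 and 11.3 CPM in the knockout. The groups did not overlap, and Slc39a10 rose by 0.37 on the log2 scale (SE 0.074; edgeR adjusted p = 0.000247).

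Slc39a8, whose product takes up zinc and manganese, stood at 7.72, 7.49, 7.73 and 6.79 CPM in the wild type and at 7.74, 8.34, 9.68 and 9.52 CPM in the knockout. The lowest knockout library and the highest wild-type libraries were nearly equal. Slc39a8 rose by 0.25 on the log2 scale (SE 0.090; edgeR adjusted p = 0.0219). The call was lost without wild-type replicate 4 (edgeR adjusted p = 0.0763), knockout replicate 3 (0.0713) or knockout replicate 4 (0.0617), and over all 16 alternatives the adjusted p ran from 0.00637 to 0.0763.

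Slc39a4, which encodes the importer known from intestinal zinc absorption, was the importer that fell. It stood at 83.9, 85.5, 91.7 and 84.1 CPM in the wild type and at 65.8, 68.5, 59.4 and 66.8 CPM in the knockout. No library of either genotype came near the other group. Slc39a4 went from 86.3 ± 3.66 to 65.1 ± 3.98 CPM (SD, n = 4 each), a log2 fold change of -0.41 (SE 0.044; edgeR adjusted p = 1.02e-07). The gene lies on chromosome 15 from 76612383 to 76617384, 21.5 Mb from Taf2 on the same chromosome. The other members lie on chromosome 13 from 100802648 to 100833427 (Slc30a5), chromosome 3 from 135825279 to 135888572 (Slc39a8), chromosome 1 from 46807544 to 46892852 (Slc39a10) and chromosome 14 from 70303469 to 70351425 (Slc39a14), all on mm10.

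Across the set, 7 of the 10 members were called higher and 3 lower, where 30.2% of the 12122 genes tested were called higher, 31.2% lower and 61.4% in either direction. CPM values of the genotypes did not overlap in all 10 members, against 54.7% of the genes tested. All 10 passed the filter on low counts. Their median log2 fold change was 0.32, beside -0.0035 over all genes tested, and their median absolute change was 0.39, beside 0.22. The members were chosen with earlier results of these data known, so these contrasts describe the set and are not independent evidence about it. Apart from Slc30a10 the changes were under 1 on the log2 scale.

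**Figure D3:**
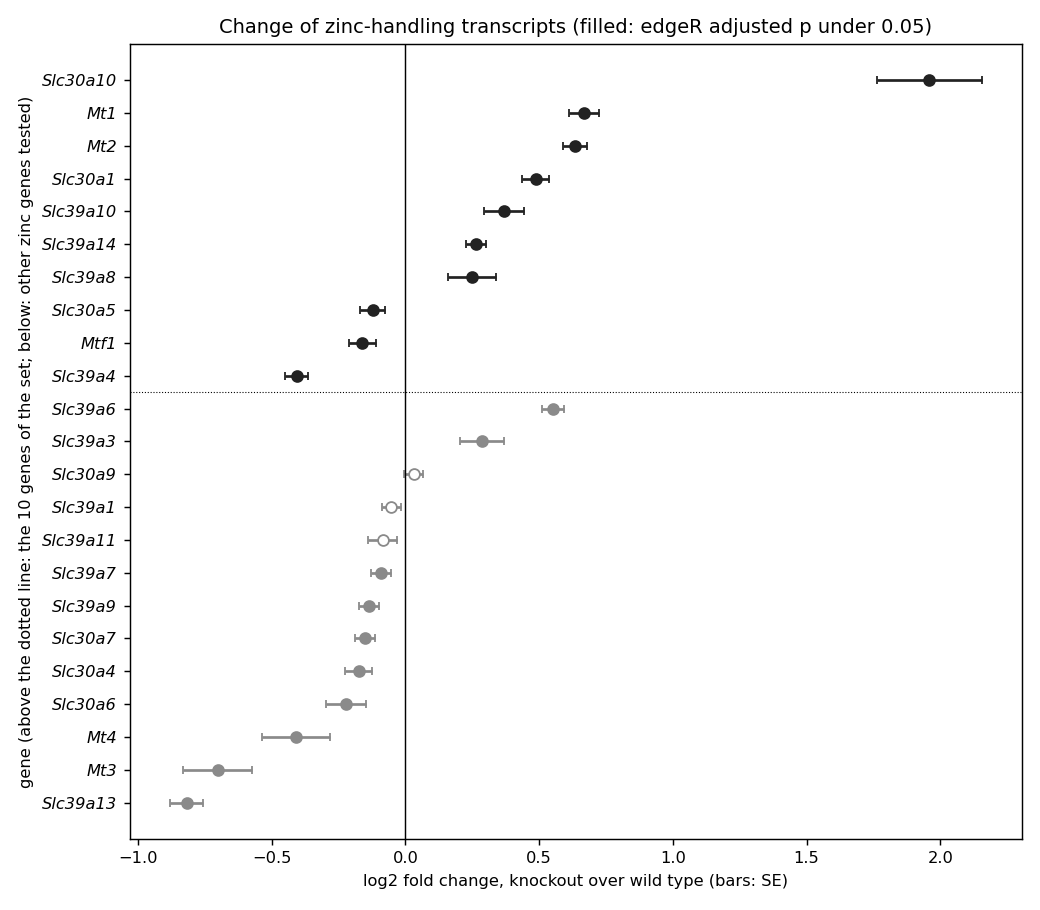
Log2 fold change of knockout over wild type (x axis, bars show SE) for the 10 genes of the set above the dotted line and the 13 other tested zinc genes below it (y axis). Filled points passed an edgeR adjusted p of 0.05. Slc30a10 stands at 1.96 and the lowest point is Slc39a13 at -0.82.

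The SD relative to the mean was larger among knockout than among wild-type libraries in 8 of the 10 members, the exceptions being Slc30a10 and Slc39a10. The same count was not made over all genes tested, so it cannot be read as particular to the members. Knockout replicate 3 held the highest knockout level of Mt1, Mt2, Slc30a1, Slc30a10 and Slc39a8, and the lowest of Mtf1, Slc30a5, Slc39a4 and Slc39a10. Without it the log2 fold changes of Mt1, Mt2 and Slc30a1 were 0.60, 0.59 and 0.43, and 6 members were called higher and 1 lower.

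Levels of different genes were compared as CPM per kilobase of the longest annotated transcript, a level and not a difference. In the wild type Mt2 stood at 2142 ± 96.4 and Mt1 at 1135 ± 49.4 CPM per kilobase, far above Slc39a14 (49.3 ± 1.28), Slc39a4 (31.4 ± 1.33), Slc30a1 (10.1 ± 0.228), Slc30a5 (8.75 ± 0.225) and Mtf1 (5.08 ± 0.132; SD, n = 4 each). Slc39a8 (1.76 ± 0.104) and Slc39a10 (1.65 ± 0.111) were neighbours that differed by about their spread. In the knockout they differed by less than it, at 2.09 ± 0.222 and 2.13 ± 0.0939. With the mean transcript length Slc39a10 stood above Slc39a8, at 4.06 against 2.18 in the wild type and 5.24 against 2.59 in the knockout. Slc30a10 was lowest at 0.138 ± 0.0441 CPM per kilobase in the wild type and 0.533 ± 0.0429 in the knockout. The order of Mt2 and Mt1 turned with the length used. With the transcript that matches the table's RefSeq entry, 549 bases in place of 1085, Mt1 stood at 2243 ± 97.6 CPM per kilobase, above Mt2 by about its spread. That length also put Slc30a5, at 11.01 ± 0.283, above Slc30a1 in the wild type. It put Slc39a8 above Slc39a10 in both genotypes, at 2.10 against 1.65 in the wild type and 2.50 against 2.13 in the knockout.

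An importer and an exporter of the plasma membrane were compared as the ratio of Slc39a14 to Slc30a1 counts in each library. It was 4.51, 5.02, 4.66 and 4.89 in the wild type and 4.28, 4.40, 3.58 and 4.19 in the knockout. Every knockout ratio was below every wild-type ratio. The log2 ratio went from 2.25 ± 0.0695 to 2.03 ± 0.133 (SD, n = 4 each), a difference of -0.22 (exact two-sided permutation test, p = 0.0286, the smallest possible). Adjusted over the 2 ratios tested, p = 0.0571 in the same exact permutation test, which misses the threshold of 0.05. The unadjusted p was 0.0571 without wild-type replicate 2, 3 or 4 or knockout replicate 3, and 0.0286 without each of the others (exact permutation tests). The ratios of the genotypes stayed apart whichever library was left out. These p-values therefore reflect the few arrangements left and do not by themselves single out a library.

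**Figure D4:**
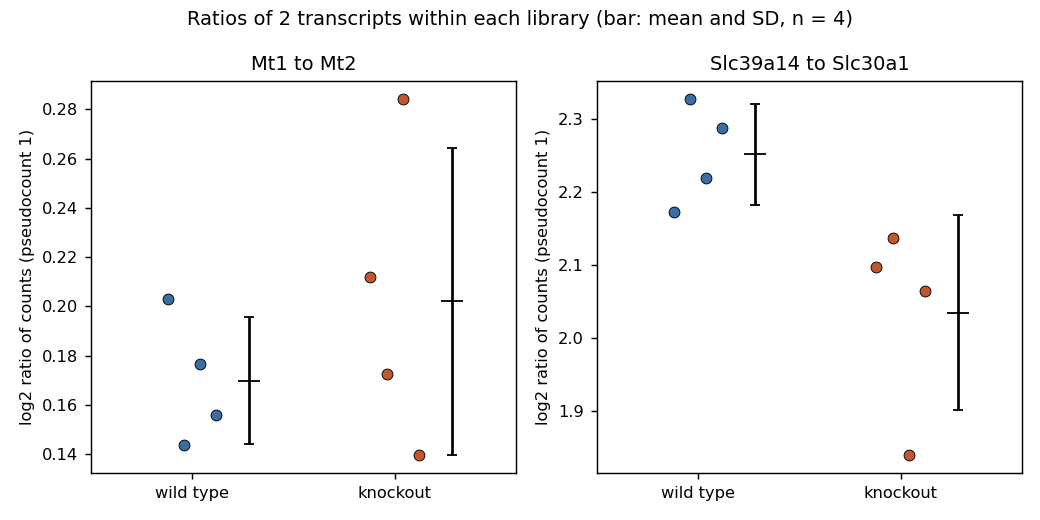
Log2 ratio of counts within each library (y axes, which do not start at 0) for Mt1 to Mt2 on the left and Slc39a14 to Slc30a1 on the right, by genotype (x axes), with the mean and SD of 4 libraries. The Mt1 to Mt2 ratios overlap between genotypes, and the Slc39a14 to Slc30a1 ratios do not.

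The other metallothionein and zinc transporter genes were mostly lower. Of 19 listed, 13 passed the filter on low counts, and of these 2 were called higher, 8 lower and 3 neither. That is 76.9% called beside 61.4% of all genes tested, with a median log2 fold change of -0.13. The number called lower was 6 with DESeq2 or without wild-type replicate 1, and the call of Slc39a7 was lost in 11 of 16 alternatives. Mt3 and Mt4, the remaining genes of the metallothionein cluster, lie upstream of Mt2 on chromosome 8, Mt3 at a distance of 18.52 kb. Mt3 stood at 4.16, 3.60, 4.49 and 4.59 CPM in the wild type and at 2.29, 2.80, 2.77 and 2.51 CPM in the knockout, with no overlap. It went from 4.21 ± 0.448 to 2.59 ± 0.240 CPM (SD, n = 4 each), a log2 fold change of -0.70 (edgeR adjusted p = 7.9e-05). Mt4 went from 12.5 ± 2.37 to 9.45 ± 1.93 CPM (edgeR adjusted p = 0.00925), but its groups overlapped, and the call was lost with DESeq2 and without wild-type replicate 1. Over 16 alternatives the adjusted p of Mt4 ran from 0.000364 to 0.0703.

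Slc39a13, which encodes a zinc transporter of the secretory pathway, fell from 25.97 ± 1.26 to 14.7 ± 0.858 CPM (log2 fold change -0.82, SE 0.062; edgeR adjusted p = 5.05e-10). Slc30a7, whose product carries zinc into the Golgi, fell from 85.5 ± 3.08 to 76.99 ± 2.86 CPM (edgeR adjusted p = 0.00186). Slc30a6, whose product pairs with that of Slc30a5, fell from 13.03 ± 0.930 to 11.2 ± 0.863 CPM (edgeR adjusted p = 0.0158), a call lost without wild-type replicate 4 or knockout replicate 1. The importer gene Slc39a6 went up from 64.7 ± 3.12 to 94.8 ± 3.85 CPM (log2 fold change 0.55, SE 0.041; edgeR adjusted p = 3.95e-10), and Slc39a3 from 8.23 ± 0.355 to 10.06 ± 0.981 CPM (edgeR adjusted p = 0.00549). Slc39a1, the most abundant of these genes by CPM, stood at 236 ± 5.03 CPM in wild-type and 227 ± 5.01 CPM in knockout libraries (log2 fold change -0.052; edgeR adjusted p = 0.194).

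Further lists hold genes that share regulators or cargo with the set. Of 8 genes linked to MTF1 or metal stress, 6 were called higher and 1 lower (87.5% called), with a median log2 fold change of 0.52. Ndrg1, which also responds to hypoxia, rose from 75.6 ± 3.81 to 478 ± 57.7 CPM, the haem oxygenase gene Hmox1 from 169 ± 7.91 to 772 ± 48.4 CPM, and Gclc, which encodes the catalytic subunit of glutamate-cysteine ligase, from 1078 ± 84.96 to 1574 ± 104 CPM (edgeR adjusted p = 3.3e-17, 2.3e-18 and 1.76e-08). Csrp1 went from 41.2 ± 2.00 to 37.8 ± 0.888 CPM (edgeR adjusted p = 0.0201), a call lost with upper-quartile scaling, with DESeq2 and without wild-type replicate 1 or knockout replicate 1 or 3. Txnrd1, which encodes thioredoxin reductase, rose from 439 ± 4.47 to 619 ± 14.3 CPM (edgeR adjusted p = 6.38e-11). Selenow rose less, from 61.2 ± 3.46 to 75.2 ± 3.25 CPM (log2 fold change 0.30; edgeR adjusted p = 5.26e-06). Selenoh was not called, at 5.06 ± 0.580 and 4.97 ± 0.526 CPM (log2 fold change -0.039; edgeR adjusted p = 0.782). Whether MTF1 had a part in any of these changes was not tested.

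Of 19 genes of copper, iron and manganese handling, 10 were called higher and 2 lower, with a median log2 fold change of 0.16. The share called, 63.2%, was close to the 61.4% of all genes tested. Hamp, the gene of the iron-regulating hormone hepcidin, went up from 1.25 ± 0.541 to 20.8 ± 3.81 CPM, the iron exporter gene Slc40a1 from 84.6 ± 2.62 to 128 ± 6.09 CPM, and the ferritin heavy chain gene Fth1 from 2268 ± 112 to 3368 ± 168 CPM (edgeR adjusted p = 1.24e-13, 7.63e-11 and 3.76e-10). The ferritin light chain gene Ftl1 was the most abundant by CPM, at 4340 ± 203 and 5394 ± 272 CPM (edgeR adjusted p = 2.03e-06). Cp, which encodes the copper-carrying plasma protein ceruloplasmin, fell from 2403 ± 139 to 1673 ± 207 CPM, and Ccs, the gene of the copper chaperone of superoxide dismutase, from 36.7 ± 1.74 to 33.2 ± 1.99 CPM (edgeR adjusted p = 4.97e-07 and 0.0235). The call of Ccs was lost with upper-quartile scaling and without wild-type replicate 1 or 4 or knockout replicate 2 or 4, and over 16 alternatives its adjusted p ran from 0.0129 to 0.118.

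Glucocorticoids and IL-6 also induce metallothioneins in liver. Of 12 glucocorticoid-responsive genes, 9 were called higher and 1 lower (83.3% called, median log2 fold change 0.38). The amino acid catabolism genes Tdo2 and Tat rose from 16.9 ± 1.25 to 41.1 ± 2.78 CPM and from 52.3 ± 0.588 to 126 ± 17.6 CPM, and the phosphatase gene Dusp1 from 173 ± 13.2 to 316 ± 13.1 CPM (edgeR adjusted p = 5.34e-13, 2.65e-12 and 3.08e-12). Lcn2 fell from 3019 ± 63.8 to 2546 ± 80.9 CPM (edgeR adjusted p = 3.94e-06). Fkbp5 and Tsc22d3 were not called, with log2 fold changes of 0.056 and -0.060 (edgeR adjusted p = 0.194 and 0.295). Whether glucocorticoid signalling had a part in the metallothionein changes was not tested. Of 13 genes of the IL-6 response, 6 were called higher and 6 lower (92.3% called, median log2 fold change -0.057). The serum amyloid genes Saa2 and Saa1, near-identical copies whose reads may be split between them, fell from 2273 ± 77.8 to 925 ± 34.1 CPM and from 2289.6 ± 96.8 to 1113 ± 40.2 CPM, and the haptoglobin gene Hp from 5029.5 ± 80.5 to 3182 ± 107 CPM (edgeR adjusted p = 2.76e-16, 9.66e-15 and 2.04e-12). The fibrinogen chain genes Fgg and Fga rose from 756 ± 49.4 to 1059.5 ± 37.8 CPM and from 1095 ± 91.0 to 1432 ± 94.1 CPM, and Socs3, a feedback inhibitor of cytokine signalling, from 4.62 ± 0.905 to 8.67 ± 0.645 CPM (edgeR adjusted p = 5.43e-09, 2.33e-06 and 6.94e-07). Hpx, which encodes the haem-binding plasma protein hemopexin, was the most abundant of these genes by CPM. Its level fell from 8590 ± 199 to 7082 ± 237 CPM (edgeR adjusted p = 1.19e-06).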

How the data were processed

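RNA was sequenced in 4 wild-type and 4 Taf2 knockout hepatocyte libraries. The authors deposited expected counts per gene, which the submitters' processing notes tie to RSEM and mm10. RSEM's version, the aligner and the strand setting are not stated in those notes. Groups come from sample titles. The 8 columns that match library names were used, and 8 columns that match no sample were not.

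Rounded counts passed filterByExpr at a minimum count of 10 and a total of 15, were TMM-scaled, and went into the quasi-likelihood test of edgeR 4.0.16 (R 4.3.3), with Benjamini-Hochberg adjustment over 12122 genes and a threshold of 0.05. SE is the absolute log2 fold change over the square root of F. Log2 CPM used a prior count of 2. Each library was counted as 1 replicate. Counts of same-genotype libraries differed beyond sampling noise (chi-square per degree of freedom 3.05 to 8.18), which does not show whether they came from separate mice.

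The alternatives tried were scaling by RLE or the upper quartile, DESeq2 1.42.0, limma-voom (limma 3.58.1), other filters on low counts, thinning, a replicate block and leaving out each library. Members and lists were chosen with earlier results of these data known. All 10 members are named. From the lists, the rule took up to 3 called genes a direction by adjusted p and the most abundant, applied in full to the pathway lists, with marker lists given mainly by counts and sums. Mt4, Slc30a6, Slc39a7, Selenow, Selenoh, Fkbp5 and Tsc22d3 were added after their values were seen. Gene positions and lengths come from GENCODE M21, and promoters from RefSeq (GRCm38.p6).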

Additional observations from a re-analysis of the deposited data

How the results depend on the processing

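The direction of every member held in all 16 alternatives. The calls of Mt1, Mt2, Slc30a1, Slc30a10, Slc39a4, Slc39a10 and Slc39a14 held in all of them, with log2 fold changes of 0.60 to 0.72 for Mt1 and 0.59 to 0.67 for Mt2. Those of Mtf1, Slc39a8 and Slc30a5 were lost in 1, 3 and 9. Upper-quartile scaling moved the median of all genes by 0.024 on the log2 scale. With each library left out, members called higher ran from 6 to 7 and lower from 1 to 3. Replicate numbers share no stated source, and same-numbered libraries did not deviate together (correlations from -0.069 to 0.011 across genes). With the replicate block 1 cholangiocyte marker was called higher in place of 2, and 2 secretory epithelium markers lower in place of 1. The blocked ratio of Slc39a14 to Slc30a1 differed by -0.22, with p = 0.125 in an exact sign-flip test, the smallest it allows. Without single libraries that difference ran from -0.25 to -0.15. Its p was 0.0571 without wild-type replicate 2, 3 or 4 or knockout replicate 3 and 0.0286 without each of the others (exact permutation tests). The genotypes stayed apart in each case, so these p-values reflect the few arrangements left. The count of metal response genes called lower was 0 with upper-quartile scaling or DESeq2 and 0 to 1 without single libraries. Copper, iron and manganese genes called lower numbered 1 with upper-quartile scaling and 1 to 3 without single libraries. Stellate markers called higher numbered 5 with at least 1 CPM in 4 libraries, since fewer were tested. Cholangiocyte markers called higher numbered 1 with DESeq2 or limma-voom and 1 to 2 without single libraries. Secretory epithelium markers called lower numbered 2 without the low-count filter and 1 to 2 without single libraries. The causes of these moves were otherwise not tested. Levels per kilobase depend on the transcript length chosen, which was added as an alternative after seeing the data for the RefSeq match. Depth limits Slc30a10 most, with 10 to 21 counts per wild-type library.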
